A study of Mus musculus with 17 samples.

Results

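The lysosomal hydrolases, lysosomal membrane proteins and V-ATPase subunits described here are 45 genes, listed by symbol with the cathepsins left out, of 41388 gene IDs in the count tables. They comprise 23 hydrolases, 3 activator and carrier proteins, 6 membrane proteins and 13 subunits or accessory proteins of the V-ATPase. All 45 were matched to an ID, and all passed the filter on low counts, a CPM (counts scaled by TMM to a common library size) of at least 1 in at least 3 libraries, which 13060 genes passed. The lowest count of any member in any library was 48, so no level rested on single reads. RNA was sequenced from microglia of C57BL/6 mice, sorted as CD45dim CD11b+ cells and divided by CD11c, in 17 libraries. There were 4 libraries of neonatal CD11c+ microglia, 4 of neonatal CD11c- microglia, 3 of EAE CD11c+ microglia, 3 of EAE CD11c- microglia and 3 of microglia from untreated adults. EAE, experimental autoimmune encephalomyelitis, was induced in adult female mice with a peptide of myelin oligodendrocyte glycoprotein in adjuvant and pertussis toxin, and the mice had symptoms when the cells were taken. The adult libraries carry a title of total microglia and a CD11c-negative label in another field, and are called adult microglia here. The paper took the neonatal microglia within days of birth and describes its neonatal mice as of mixed sex. Each library came from a pool of mice, so the spread between libraries is a spread between pools. Age, sex, disease and immunisation cannot be separated beyond these 5 groups.

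Lysosomes are acidic organelles in which soluble hydrolases break down material taken up by phagocytosis, endocytosis or autophagy. The V-ATPase pumps protons into the lumen: its V1 sector, on the cytosolic face, hydrolyses ATP, and its V0 sector, in the membrane, carries the protons across. In microglia the organelle digests engulfed cell debris, synapses and myelin, and inherited loss of many of these hydrolases causes storage of undigested lipid or glycan in the brain.

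The counts per library ran from 5115489 to 10436066. None of the 12 microglia markers was at 0 in any library. Their summed CPM was 46650 to 51640 in adult, 35050 to 43770 in neonatal CD11c-, 34650 to 37910 in EAE CD11c-, 30430 to 35260 in neonatal CD11c+ and 26010 to 30940 in EAE CD11c+ libraries, so the adult libraries lay above all 14 others. Markers of other cells differed between groups. The 9 neutrophil markers summed to 6617 to 12640 CPM in EAE CD11c- libraries, 900.9 to 1820 in adult, 327.9 to 1826 in neonatal CD11c-, 41.7 to 69.5 in EAE CD11c+ and 9.45 to 12.3 in neonatal CD11c+ libraries. The 8 border macrophage markers summed to 4523 to 7894 CPM in neonatal CD11c+ libraries against 2401 to 2944 in neonatal CD11c-, 1567 to 1598 in adult and 550.0 to 976.7 in both EAE groups. The 6 blood monocyte markers summed to 502.9 to 805.6 CPM in EAE CD11c- libraries and to 147.2 or less elsewhere, and the lymphocyte, neuron, oligodendrocyte, astrocyte and endothelial lists to 215.5 or less in every library. The part of these cells in the results below was not tested. Within their groups 3 libraries stood apart over the 45 members: library 17 of the neonatal CD11c- group, library 1 of the EAE CD11c+ group and library 16 of the neonatal CD11c+ group (libraries are named by the number in their labels). Their root mean square distances on the log2 scale to the rest of the group were 0.536, 0.425 and 0.321, against 0.102 to 0.272 for all others. Mitochondrial genes held 5.10% of counts in library 17 and 2.23% in library 1, against 0.588% to 1.56% elsewhere. The summed CPM of 9 immediate early genes, which can rise with handling, was 19170, 22220 and 41300 in the adult libraries. It was 21220 in library 16 and 1905 to 8480 in the other 13, of which the other 3 of the group of library 16 had 1905 to 2408. All 4 comparisons with adult share the high adult values, whose part in the results was not tested.

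The 45 members together took 18630 to 20860 CPM in adult libraries, 25580 to 29890 in neonatal CD11c-, 29810 to 32180 in neonatal CD11c+, 23350 to 26110 in EAE CD11c- and 30050 to 32850 in EAE CD11c+ libraries. The adult libraries lay below all 14 others. In bulk samples, fewer cells of a type and less RNA per cell cannot be told apart. The classes differed between the conditions. Summed hydrolases, on the CPM scale, were 10170 ± 572 (SD, n = 3) in adult, 15740 ± 560 (n = 4) in neonatal CD11c+ and 13990 ± 233 (n = 3) in EAE CD11c+ microglia. The 3 activator and carrier proteins summed to 5097 ± 384 in adult, 6836 ± 100.2 in neonatal CD11c+ and 11360 ± 1172 in EAE CD11c+ microglia. Summed membrane proteins were 2888 ± 182 in adult, 5692 ± 408 in neonatal CD11c+ and 3975 ± 211 in EAE CD11c+ microglia. The V-ATPase summed to 1900 ± 119, 2838 ± 32.8 and 2241 ± 221 in the same 3 groups. In neonatal CD11c- microglia (n = 4) hydrolases summed to 15300 ± 1716 and activators and carriers to 4996 ± 642. Membrane proteins summed there to 4614 ± 953 and the V-ATPase to 2070 ± 93.8. In EAE CD11c- microglia (n = 3) these sums were 12000 ± 571, 7904 ± 779, 3148 ± 134 and 2010 ± 29.8. Single genes weighed heavily: mean CPM was 9822 for Psap in EAE CD11c+ and 5670 for Lgmn in neonatal CD11c+ microglia.

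Levels of different members were compared per kilobase of exon. Legumain (Lgmn), an asparaginyl endopeptidase, had the highest level averaged over the 5 groups (2397 CPM per kb), and prosaposin (Psap), the precursor of the saposins that present sphingolipids to hydrolases, followed at 2258. They changed places between groups: Lgmn was at 2848 ± 478 and Psap at 1536 ± 220 CPM per kb in neonatal CD11c- microglia (n = 4), and Psap at 3579 ± 378.5 and Lgmn at 2559 ± 72.2 in EAE CD11c+ microglia (n = 3). In adult microglia Lgmn was at 1833 ± 149 and Psap at 1622 ± 128 CPM per kb, and the EAE CD11c- values were 2306 ± 94.6 and 2513 ± 249.9, ranges of mean ± SD that overlap. Lamp1, Hexa and Cd68 came next with means over groups of 674.8, 538.5 and 509.1 CPM per kb. Sgsh, Atp6v1h and Galc were at the bottom with 5.22, 5.95 and 5.96 CPM per kb. Their order changed between groups: Sgsh was at 8.50 ± 0.71 and Galc at 3.22 ± 0.11 in adult microglia, and at 2.28 ± 0.19 and 7.04 ± 1.14 in neonatal CD11c- microglia. Exon length here is the union of all annotated exons, which lowers the value of genes with long alternative exons.

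**Figure D1:**
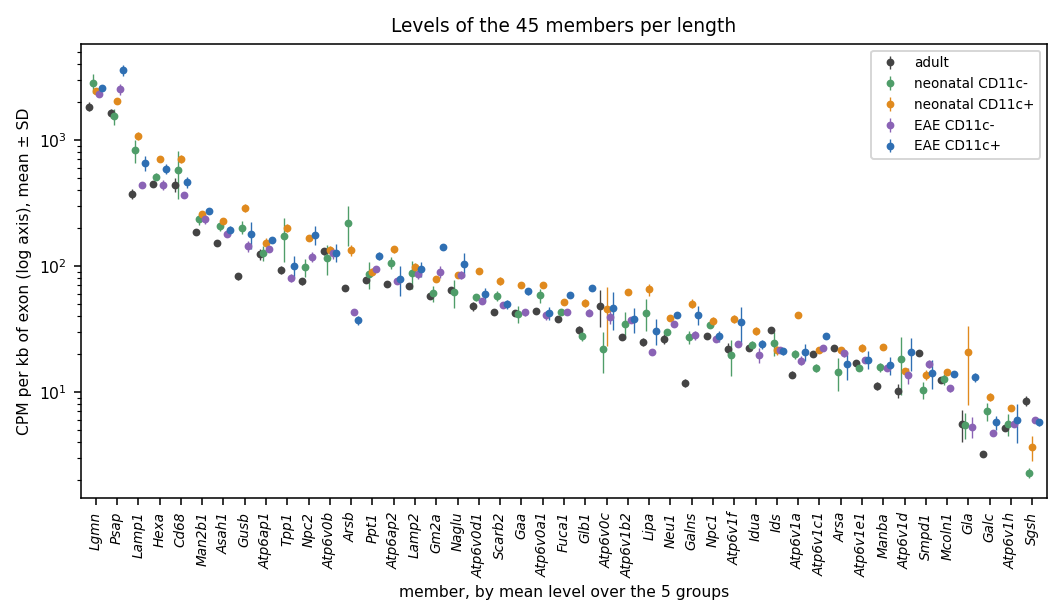
Level of each of the 45 members in CPM per kb of exon (log axis, group mean ± SD) in the 5 groups (n = 3 or 4 libraries), ordered by the mean over groups. Lgmn and Psap exceed all other members, and Sgsh, Atp6v1h and Galc are at the low end.

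Promoters of 39 members were found in RefSeq's table for GRCm38.p6, each running from 250 bases before to 50 bases after the gene start. The letters CACGTG, the core of the E-box that transcription factors of the MiT/TFE family bind in lysosomal genes, stood in 11 of the 39 (28.2%) and in 7.17% of all 32544 promoters of that length. The 7 letters TCACGTG, or CACGTGA on the other strand, stood in the same 11 (28.2%) and in 3.79% of all. The 8 letters TCACGTGA, their own reverse complement, stood in 4 members (10.3%: Mcoln1, Atp6v0d1, Atp6v1a and Gla) and in 0.983% of all promoters. These searches overlap, since each longer motif holds the shorter. Promoters are printed for 4 of the 11 members with CACGTG, 3 called higher and 1 called lower in neonatal CD11c+ than in adult microglia. They run 5′ to 3′ in the direction of the gene, with the 7 or 8 letters in capitals.
Lamp1 (chr8:13158911-13159210, plus strand): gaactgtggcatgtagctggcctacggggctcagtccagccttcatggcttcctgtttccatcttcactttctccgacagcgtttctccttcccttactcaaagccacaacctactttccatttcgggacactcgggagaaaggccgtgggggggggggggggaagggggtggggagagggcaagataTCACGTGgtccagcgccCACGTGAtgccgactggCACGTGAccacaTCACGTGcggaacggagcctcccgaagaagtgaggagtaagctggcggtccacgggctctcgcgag
Gla (chrX:134600956-134601255, minus strand): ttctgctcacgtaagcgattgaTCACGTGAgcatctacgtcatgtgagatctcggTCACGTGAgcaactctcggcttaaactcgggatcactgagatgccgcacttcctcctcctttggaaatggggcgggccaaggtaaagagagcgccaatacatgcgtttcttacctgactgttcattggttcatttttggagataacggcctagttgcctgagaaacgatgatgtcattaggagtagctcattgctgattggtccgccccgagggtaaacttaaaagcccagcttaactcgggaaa
Atp6v1a (chr16:44139210-44139509, minus strand): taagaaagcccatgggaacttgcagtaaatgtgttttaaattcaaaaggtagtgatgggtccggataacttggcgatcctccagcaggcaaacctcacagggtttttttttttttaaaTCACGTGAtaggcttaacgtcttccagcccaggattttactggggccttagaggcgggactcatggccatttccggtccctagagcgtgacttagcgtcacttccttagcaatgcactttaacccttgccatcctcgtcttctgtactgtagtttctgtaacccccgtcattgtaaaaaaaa
Sgsh (chr11:119355461-119355760, minus strand): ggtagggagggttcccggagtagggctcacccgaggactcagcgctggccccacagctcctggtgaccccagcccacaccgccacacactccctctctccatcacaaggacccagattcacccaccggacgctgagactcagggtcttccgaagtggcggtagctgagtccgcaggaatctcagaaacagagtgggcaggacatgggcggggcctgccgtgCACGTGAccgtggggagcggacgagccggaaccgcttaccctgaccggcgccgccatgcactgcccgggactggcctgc
In Lamp1 the 4 cores begin 61, 45, 28 and 15 bases before the gene start, and in Sgsh the single core begins 29 bases before it. In Gla the cores begin 227 and 194 bases before the start, and in Atp6v1a 131 bases before the start used for that table. A match describes letters in the window and no binding was measured. Gusb, Galc and Manba, called higher in all 4 comparisons with adult microglia given below, had no CACGTG in their promoters. Mcoln1, with 2 cores, was called in none of the 4. Whether the letters go with the differences was not tested.

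**Figure D2:**
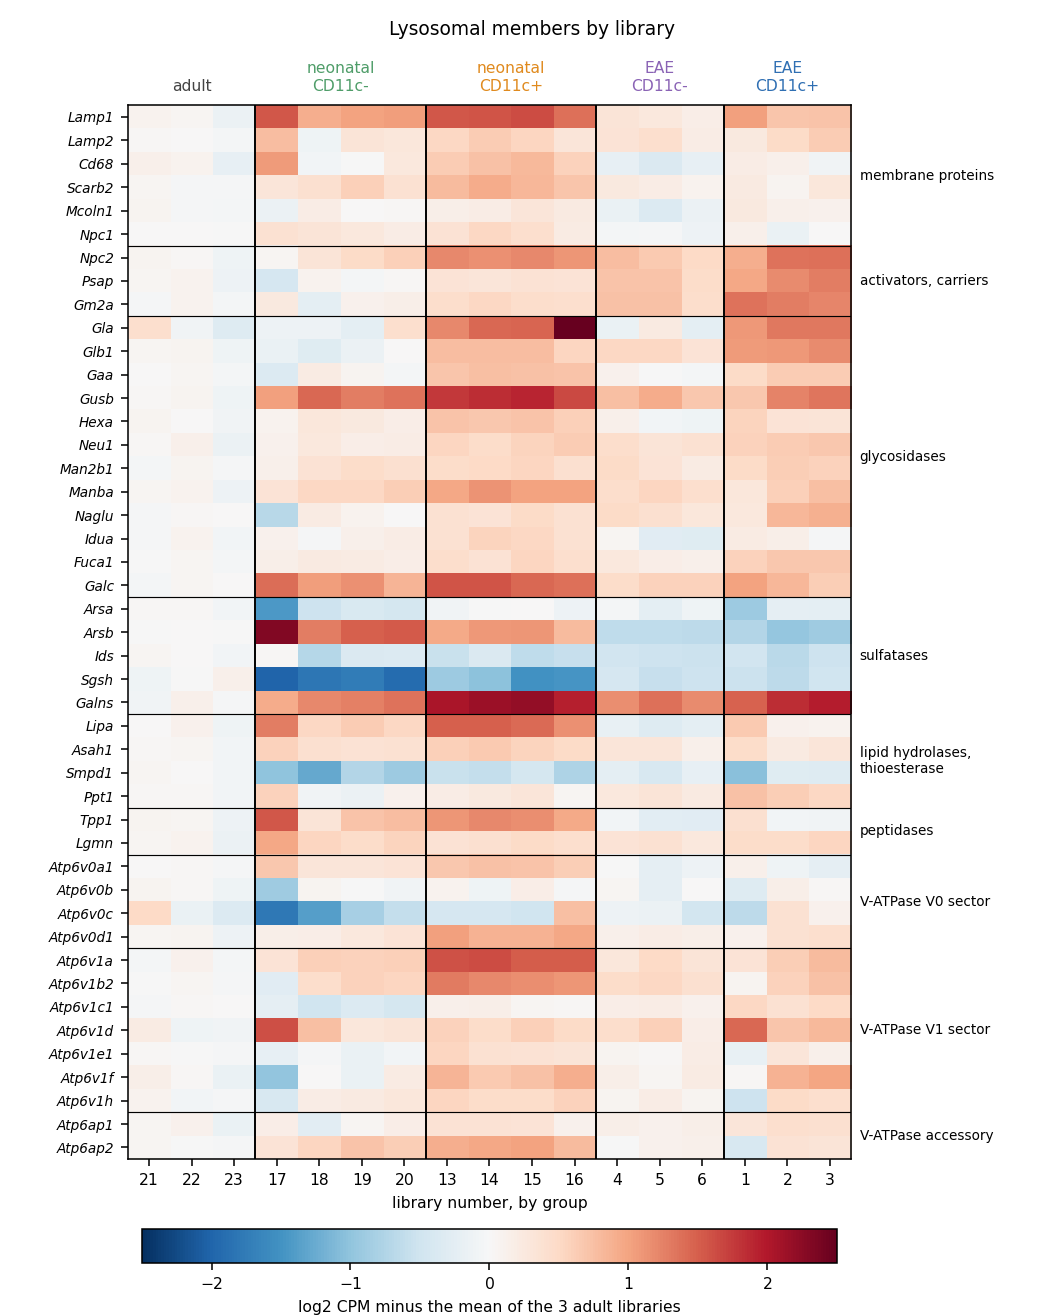
Colours give log2 CPM of each member (rows, by class) in each library (columns, by group) minus the mean of the 3 adult libraries. Neonatal CD11c+ libraries are red in most rows, Sgsh is blue in all 14 libraries outside the adult group, and Arsb is red in neonates and blue in EAE.

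Each group was compared with adult microglia to ask how the lysosomal genes of neonatal and EAE microglia differ from those of adult microglia. The 4 comparisons share the adult libraries. Calls came from edgeR's quasi-likelihood test, with p-values adjusted by Benjamini and Hochberg's method across the 13060 genes, wherever the adjusted p did not exceed 0.01, at any fold. In neonatal CD11c+ microglia 29 of 45 members were called higher and 3 lower, while 18.0% and 15.3% of all genes were. In neonatal CD11c- microglia 14 were called higher and 3 lower (13.2% and 12.1% of all genes). In EAE CD11c+ microglia 21 were called higher and 3 lower (15.1% and 11.1% of all genes). In EAE CD11c- microglia 9 were called higher and 0 lower (11.0% and 4.72% of all genes). The median log2 fold changes of the members were 0.55, 0.20, 0.46 and 0.15 in that order, and those of all genes lay between -0.03 and -0.01. In each of the 4 comparisons the libraries of every called member did not overlap between the groups. Over all genes, called or not, 20.3% to 29.7% lay above adult and 21.8% to 29.3% below it without overlap. Calls and separation rest on the same values, so neither is separate support for the other. Galc, Galns, Gusb and Manba were called higher in all 4 comparisons, and 16 members in both CD11c+ groups. The shares of all genes called jointly in this way were not counted, so these joint counts have no background beside them. Arsa, Atp6ap1, Atp6v0b, Atp6v0c, Atp6v1h, Cd68, Lamp2 and Mcoln1 were called in none of the 4.

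Single libraries moved the smaller counts. A library outside a comparison can do so, since all libraries share 1 model's estimate of the spread, the filter and the scaling. The 9 members called higher in EAE CD11c- microglia became 5 without adult library 21, 3 without adult library 23, 5 without EAE CD11c- library 4 and 3 without library 5. The 0 lower there became 2 without library 17, 1 without library 18 and 1 without library 1. The 14 higher in neonatal CD11c- microglia became 7 without adult library 23, and the 3 lower became 5 without library 1. The 3 lower in neonatal CD11c+ microglia became 1 without library 21, 22 or 13. The 3 lower in EAE CD11c+ microglia became 1 without library 22 or 3 and 0 without library 2, where Arsb had an adjusted p of 0.01002. The 29 and the 21 called higher in the CD11c+ groups stayed within 1.5 times under all of these.

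Of the 6 membrane proteins, 3 were called higher in neonatal CD11c+, 2 in neonatal CD11c- and 1 in EAE CD11c+ microglia, where 18.0%, 13.2% and 15.1% of all genes were called higher. Lamp1 (ENSMUSG00000031447, chr8:13159161-13175338), a main glycoprotein of the lysosomal membrane whose promoter with 4 cores is printed above, was read at 1059, 1035 and 899.5 CPM in adult libraries. It reached 2931, 2940, 3080 and 2568 CPM in neonatal CD11c+ libraries and 2912, 1872, 1996 and 2066 in neonatal CD11c- libraries. Its values were 2025, 1614 and 1624 CPM in EAE CD11c+ libraries and 1238, 1192 and 1114 in EAE CD11c- libraries. All 14 libraries lay above the adult ones. Within the neonatal CD11c- group library 17 was the highest. The log2 fold changes against adult were 1.53 ± 0.15 (SE) in neonatal CD11c+ (edgeR, adjusted p = 1.7e-07), 1.15 ± 0.14 in neonatal CD11c- (6.7e-06) and 0.81 ± 0.15 in EAE CD11c+ microglia (0.00035). In EAE CD11c- microglia it was 0.24 ± 0.15 and not called (adjusted p = 0.27). Scarb2, a receptor that sorts enzyme to the lysosome, was called higher in both neonatal groups (0.81 ± 0.10 in CD11c+ and 0.42 ± 0.10 in CD11c-). Npc1, which exports cholesterol from the lysosome, was called in neonatal CD11c+ microglia at 0.38 ± 0.10. The Scarb2 call in CD11c- cells was lost without library 22 or 23 (highest adjusted p = 0.015) and that of Npc1 without library 21, 22, 23, 14 or 15 (highest 0.019). Cd68, a macrophage glycoprotein, had a log2 fold change of 0.68 ± 0.21 in neonatal CD11c+ microglia (adjusted p = 0.012). The calcium channel Mcoln1 lay between 73.9 and 114.9 CPM in all 17 libraries.

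Activator and carrier proteins, which hand lipids to hydrolases or, for Npc2, to Npc1, were higher in EAE. All 3 were called higher in both EAE groups, 2 in neonatal CD11c+ and 0 in neonatal CD11c- cells. The shares of all genes called higher were 15.1% (EAE CD11c+) and 11.0% (EAE CD11c-). For the neonatal subsets they were 18.0% (CD11c+) and 13.2% (CD11c-). Psap (ENSMUSG00000004207, chr10:60277627-60302597) was read at 4601, 4700 and 4048 CPM in adult libraries, 8679, 10080 and 10710 in EAE CD11c+ libraries and 7298, 7283 and 6103 in EAE CD11c- libraries. The neonatal values were 5590, 5490, 5703 and 5607 CPM in CD11c+ libraries and 3341, 4696, 4321 and 4503 in CD11c- libraries. The 3 EAE CD11c+ libraries lay above all others, and the neonatal CD11c- libraries overlapped the adult ones, with library 17 the lowest. The log2 fold change against adult was 1.14 ± 0.13 in EAE CD11c+ (edgeR, adjusted p = 2e-06), 0.63 ± 0.13 in EAE CD11c- (0.0015) and -0.08 ± 0.12 in neonatal CD11c- microglia (0.66). Gm2a, the activator that lifts ganglioside GM2 out of the membrane for hydrolysis, was at 232.2, 253 and 229.2 CPM in adult and 606.3, 576.3 and 554.2 CPM in EAE CD11c+ libraries. Its log2 fold changes were 1.28 ± 0.12 in EAE CD11c+, 0.64 ± 0.12 in EAE CD11c- and 0.46 ± 0.12 in neonatal CD11c+ microglia. Npc2, the soluble carrier that passes cholesterol to Npc1, was at 428.2, 419.1 and 380.6 CPM in adult, 770.6, 1048 and 1064 in EAE CD11c+ and 934.3, 897.9, 941.5 and 873.2 in neonatal CD11c+ libraries. Its log2 fold changes were 1.23 ± 0.14 and 1.16 ± 0.14 in these 2 groups, all libraries of both lying above the adult ones. In EAE CD11c- microglia Npc2 was read at 698.9, 639.9 and 580.8 CPM, also all above adult, and was called at 0.65 ± 0.14, a call lost without library 22, 23, 4 or 5 (highest adjusted p = 0.017), as was that of Psap without library 23 or 5 (0.012). The neonatal CD11c+ call of Gm2a was lost without library 21, 23 or 14 (highest 0.020).

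Glycosidases, which cleave sugars from glycolipids and glycans, were higher in both CD11c+ groups. Of the 12, 11 were called higher in neonatal CD11c+ microglia, all but Naglu. In EAE CD11c+ microglia 11 of 12 were called higher, all but Idua. Neonatal CD11c- microglia had 3 (Gusb, Galc and Manba) and EAE CD11c- microglia 5 (Gusb, Galc, Manba, Glb1 and Neu1), and no glycosidase was called lower in any of the 4 comparisons. Of all genes, 18.0% were called higher in neonatal CD11c+, 15.1% in EAE CD11c+, 13.2% in neonatal CD11c- and 11.0% in EAE CD11c- microglia. The shares of all genes called lower were 15.3%, 11.1%, 12.1% and 4.72% in that order. β-Glucuronidase (Gusb) was read at 385.2, 393.8 and 351.2 CPM in adult libraries, 1285, 1348, 1402 and 1177 in neonatal CD11c+ and 768.5, 1016, 912.8 and 968.9 in neonatal CD11c- libraries. In EAE it was at 596.5, 894.5 and 957.9 CPM in CD11c+ and 632.4, 720.9 and 603.3 in CD11c- libraries. No library outside the adult group reached down to the adult range. Against adult, Gusb had log2 fold changes of 1.79 ± 0.15, 1.28 ± 0.15, 1.12 ± 0.16 and 0.79 ± 0.15 in that order of groups (edgeR, adjusted p = 3.2e-08, 2.4e-06, 1.7e-05 and 0.00087). Galc, which degrades the myelin lipid galactosylceramide, was at 46.3, 49.5 and 48.1 CPM in adult, 143.7, 142.5, 130.9 and 125.2 in neonatal CD11c+ and 127.5, 98.5, 105.7 and 87.1 in neonatal CD11c- libraries. Its log2 fold changes were 1.5 ± 0.13 and 1.13 ± 0.12 in the neonatal groups and 0.83 ± 0.13 and 0.54 ± 0.13 in EAE CD11c+ and CD11c- microglia. Glb1, the β-galactosidase of GM1 ganglioside, was at 95.8, 97.6 and 85.7 CPM in adult and 194.5, 197.4 and 209.9 in EAE CD11c+ libraries, a log2 fold change of 1.11 ± 0.11. Calls in EAE CD11c- microglia were lost for Galc without library 21, 22, 23, 5 or 6 (highest adjusted p = 0.024), for Glb1 without 21, 23, 4 or 5 (0.026), for Manba without any of the 3 adult or 3 EAE CD11c- libraries (0.041) and for Neu1 without 21, 23, 15, 4, 5 or 6 (0.0497). In EAE CD11c+ microglia the call of Naglu was lost without 21, 22, 23, 2 or 3 (0.036) and that of Hexa without 22, 23 or 1 (0.029). In neonates the call of Idua in CD11c+ cells was lost without 21 or 23 (0.012) and that of Manba in CD11c- cells without 23 (0.016).

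α-Galactosidase A (Gla, ENSMUSG00000031266, chrX:134588149-134601125), which cleaves globotriaosylceramide, was called higher in both CD11c+ groups and had log2 fold changes of -0.04 ± 0.33 and -0.08 ± 0.35 in neonatal and EAE CD11c- microglia. It was read at 24.1, 16.7 and 14.2 CPM in adult, 16.4, 16.4, 15.0 and 24.1 in neonatal CD11c- and 16.0, 21.0 and 15.0 in EAE CD11c- libraries. It reached 41.6, 48.5, 49.6 and 129.6 CPM in neonatal CD11c+ and 38.3, 44.8 and 44.7 in EAE CD11c+ libraries. The 7 CD11c+ libraries lay above the 10 others. The log2 fold change against adult was 1.87 ± 0.33 in neonatal CD11c+ microglia (edgeR, adjusted p = 0.00016) and 1.22 ± 0.34 in EAE CD11c+ microglia (0.0095). Library 16, at 129.6 CPM, was the one of its group with the high immediate early sum, and without it the neonatal value was 1.34 and still called. In all 5 groups the library with the highest immediate early sum also had the highest Gla level, which was so for 2 of 45 members (Gla and Atp6v1h) and for 0.597% of all genes tested. This order was looked for after the values were seen, and its part in the result was not tested. The EAE CD11c+ call was lost without any 1 of 11 libraries (22, 23, 18, 19, 15, 4, 5, 6, 1, 2 or 3; highest adjusted p = 0.049).

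**Figure D3:**
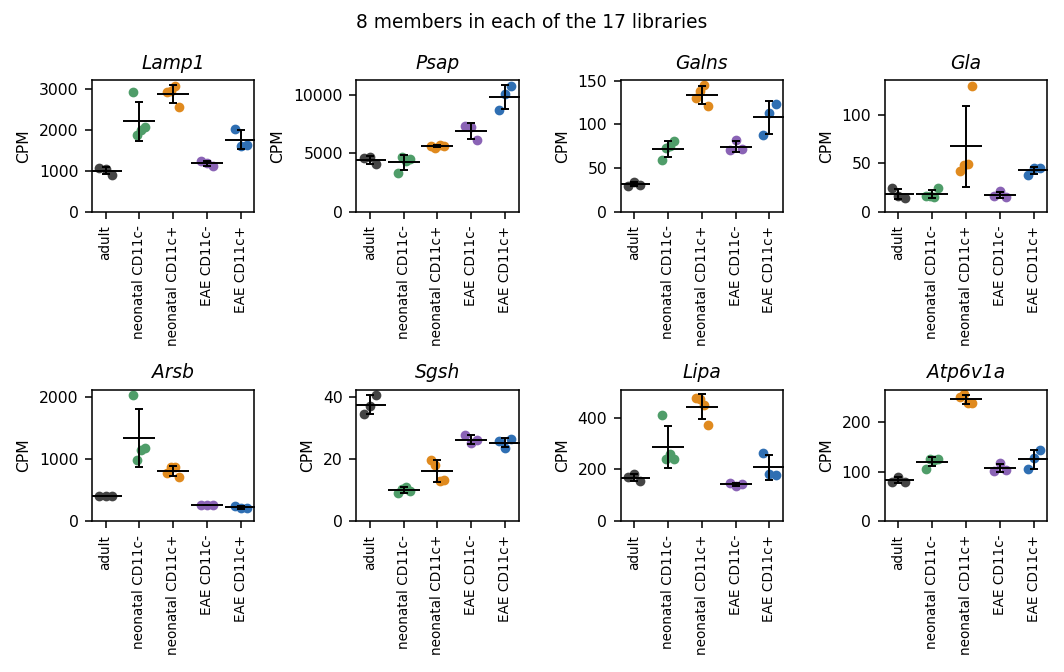
CPM of 8 members in each of the 17 libraries (points), with group mean and SD (bars). Gla is raised in the 7 CD11c+ libraries, Arsb is above adult in neonates and below it in EAE, Psap is highest in EAE CD11c+, and Atp6v1a in the 4 neonatal CD11c+ libraries.

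Sulfatases, which remove sulfate from glycosaminoglycans and sulfatide, moved in opposite directions. Galns, which acts on keratan and chondroitin sulfate, rose in all 4 groups. It was read at 29.5, 34.0 and 30.4 CPM in adult libraries, 129.7, 137.5, 144.5 and 120.9 in neonatal CD11c+ and 59.6, 72.6, 74.9 and 80.8 in neonatal CD11c- libraries. In EAE it was at 87.4, 112.8 and 123.3 CPM in CD11c+ and 70.6, 81.5 and 71.7 in CD11c- libraries. All 14 lay above the adult libraries, and the log2 fold changes were 2.09 ± 0.14, 1.20 ± 0.13, 1.78 ± 0.14 and 1.25 ± 0.14 in that order, each with an edgeR adjusted p of 2.2e-06 or lower. Sgsh (ENSMUSG00000005043, chr11:119343425-119355536), the heparan N-sulfatase, fell. Its CPM was 34.5, 37.2 and 40.8 in adult, 9.15, 10.5, 11.0 and 9.64 in neonatal CD11c- and 19.9, 18.2, 13.0 and 13.2 in neonatal CD11c+ libraries. In EAE it was 27.8, 25.0 and 26.1 in CD11c- and 25.7, 23.6 and 26.6 in CD11c+ libraries. The adult libraries were the 3 highest and the neonatal CD11c- libraries the 4 lowest of the 17. The log2 fold changes against adult were -1.89 ± 0.15 in neonatal CD11c- (adjusted p = 1.8e-08), -1.21 ± 0.14 in neonatal CD11c+ (1.7e-06), -0.57 ± 0.15 in EAE CD11c+ (0.0062) and -0.51 ± 0.15 in EAE CD11c- cells (0.017, not called). The EAE CD11c+ call was lost without library 22, 23, 5, 6, 1, 2 or 3 (highest 0.033). Of the exon bases of Sgsh, 21.6% overlap Card14, whose reads cannot be told apart there if counting did not use strand.

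Arsb, the sulfatase of dermatan and chondroitin sulfate, was higher than adult in neonates and lower in EAE. It was read at 401.8, 411.6 and 406.1 CPM in adult, 2024, 988.5, 1143 and 1174 in neonatal CD11c- and 779.5, 864.6, 876.3 and 707.4 in neonatal CD11c+ libraries. The EAE values were 260.5, 262.5 and 257.6 CPM in CD11c- and 245.8, 207.5 and 218.1 in CD11c+ libraries. No library of any of the 3 conditions overlapped another, and library 17 was the highest of all. The log2 fold changes against adult were 1.71 ± 0.19 in neonatal CD11c- (edgeR, adjusted p = 1.1e-06), 0.99 ± 0.18 in neonatal CD11c+ (0.00024), -0.86 ± 0.19 in EAE CD11c+ (0.0017) and -0.64 ± 0.19 in EAE CD11c- cells (0.019, not called). Without library 17 the first was 1.44, and without library 2 the EAE CD11c+ value was not called (0.01002). Of the exon bases of Arsb, 32.3% overlap the gene Gm26527. Ids, the iduronate sulfatase, was called lower in both CD11c+ groups (-0.53 ± 0.13 in neonates and -0.55 ± 0.14 in EAE), calls that were lost without library 21, 22, 13 or 15 (highest adjusted p = 0.014) and without library 21, 22, 2 or 3 (0.023). Arsa, the arylsulfatase of sulfatide, was called in none of the 4 comparisons, with 56.9 to 63.1 CPM in neonatal CD11c- libraries 18 to 20, 30.3 in library 17 and 78.4 to 84.4 in adult libraries.

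Among the lipid hydrolases, lysosomal acid lipase (Lipa), which frees cholesterol and fatty acids from their esters, was at 169.6, 180.3 and 154.8 CPM in adult, 473.7, 471.7, 450.2 and 371.7 in neonatal CD11c+ and 409.3, 239.9, 259.8 and 238.9 in neonatal CD11c- libraries. Both neonatal groups lay above the adult range, library 17 being the highest of its group. Lipa had log2 fold changes of 1.39 ± 0.18 (edgeR, adjusted p = 7.2e-06) and 0.77 ± 0.18 (0.0026, lost without library 21 or 23, highest 0.018). In EAE Lipa was not called, at 0.30 ± 0.19 in CD11c+ and -0.25 ± 0.19 in CD11c- microglia. Asah1, the acid ceramidase, was called higher in both neonatal groups (0.57 ± 0.10 in CD11c+ and 0.43 ± 0.10 in CD11c-, the latter with an adjusted p of 0.016 without library 23). Smpd1, the acid sphingomyelinase, fell in the same 2 groups: 70.4, 68.6 and 65.2 CPM in adult libraries stood against 33.5, 27.8, 40.9 and 36.1 in neonatal CD11c- and 46.1, 45.1, 50.2 and 40.0 in neonatal CD11c+ libraries. Smpd1 had log2 fold changes of -0.97 ± 0.16 (8.7e-05) and -0.58 ± 0.15 (0.0046), and the second call was lost without library 21, 22, 23, 13, 14 or 16 (highest 0.019). The thioesterase Ppt1 was called in EAE CD11c+ microglia and in no other of the 4 comparisons, at 0.63 ± 0.15 (0.0029, lost without library 21, 22 or 23, highest 0.015). Its values in the other 3 comparisons lay between 0.15 and 0.27.

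The peptidase Tpp1, which removes tripeptides from protein ends, was at 504, 491.5 and 439.3 CPM in adult, 1027, 1094, 1070 and 921.5 in neonatal CD11c+ and 1403, 601, 781.9 and 811.5 in neonatal CD11c- libraries. All 8 neonatal libraries were above the adult ones, and library 17 was again the highest. Its log2 fold changes were 1.10 ± 0.21 (edgeR, adjusted p = 0.00034) and 0.91 ± 0.21 (0.0023, and 0.015 without library 23). In the EAE groups Tpp1 had 0.11 ± 0.22 in CD11c+ and -0.21 ± 0.22 in CD11c- microglia. Lgmn was called higher in 3 groups, at 0.64 ± 0.12 in neonatal CD11c-, 0.41 ± 0.12 in neonatal CD11c+ and 0.48 ± 0.12 in EAE CD11c+ microglia. Its calls in the CD11c+ groups were lost without library 21, 22, 23, 14, 15 or 16 in neonates (highest adjusted p = 0.046) and 21, 22, 23, 2 or 3 in EAE (0.030).

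Of the 13 V-ATPase genes, 7 were called higher and 0 lower in neonatal CD11c+ microglia, 3 higher and 1 lower in neonatal CD11c-, 3 higher and 0 lower in EAE CD11c+, and 0 in EAE CD11c- cells. The shares of all genes called higher were 18.0%, 13.2%, 15.1% and 11.0% in these groups, and 12.1% were lower in neonatal CD11c- microglia. The 3 of 13 and 1 of 13 are not far from those shares. Atp6v1a (ENSMUSG00000052459, chr16:44085402-44139705), the catalytic subunit of V1, was read at 79.7, 89.5 and 79.7 CPM in adult and 249.8, 256.2, 237.4 and 238.6 in neonatal CD11c+ libraries. It was at 105.8, 125.0, 123.6 and 125.1 CPM in neonatal CD11c-, 105.2, 127.2 and 143.4 in EAE CD11c+ and 100.8, 116.9 and 103.9 in EAE CD11c- libraries. The 4 neonatal CD11c+ libraries lay above all 13 others. The log2 fold changes against adult were 1.56 ± 0.11 in neonatal CD11c+ (edgeR, adjusted p = 5.2e-09), 0.53 ± 0.11 in neonatal CD11c- (0.0010), 0.60 ± 0.12 in EAE CD11c+ (0.00059) and 0.37 ± 0.12 in EAE CD11c- cells (0.027, not called). Atp6v1b2, its partner in the catalytic head, was at 142.7, 148.2 and 141.3 CPM in adult and 352.8, 332.6, 322.7 and 309.8 in neonatal CD11c+ libraries, a log2 fold change of 1.19 ± 0.18. Atp6v0d1, the V0 subunit that couples to the stalk, rose by 0.93 ± 0.10 in the same comparison, and Atp6v0a1, of the proton path, by 0.68 ± 0.11. The accessory protein Atp6ap2 rose by 0.92 ± 0.15 and V1 subunits Atp6v1f and Atp6v1e1 by 0.78 ± 0.22 and 0.40 ± 0.11. The last 2 calls were lost without library 21, 22, 23, 13 or 14, and that of Atp6v1f also without 15 or 16 (highest 0.041 and 0.023).

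Other V-ATPase subunits behaved differently. Atp6v1c1, which bridges head and stalk, was at 110.6, 114.4 and 112.9 CPM in adult, 95.8, 80.1, 88.8 and 83.0 in neonatal CD11c- and 160.9, 147.4 and 158.7 in EAE CD11c+ libraries. The groups did not overlap, and the log2 fold changes were -0.37 ± 0.09 (edgeR, adjusted p = 0.0024, lost without library 22, 23, 18 or 20, highest 0.013) and 0.47 ± 0.09 (0.00062). Atp6v1d was called in EAE CD11c+ microglia and in no other of the 4 comparisons, at 1.01 ± 0.27 (0.0069). Library 1 carried its highest value there, 126.8 CPM against 76.0 and 82.0, and without it the log2 fold change was 0.75 (0.037). The call was also lost without library 21, 22, 23 or 3. Among all libraries Atp6v1d was highest in library 17, at 143.1 CPM. Atp6v0c, the proteolipid of the proton ring, was at 266.8 CPM in library 16 against 112.4 to 118.6 in the other neonatal CD11c+ libraries, at 45.4 to 104 in neonatal CD11c- and at 124.9 to 224.5 in adult libraries. It was called in none of the 8 comparisons. In 4 of the 5 groups, EAE CD11c- being the exception, its highest value was in the library with the highest immediate early sum. In neonatal CD11c- microglia the call of Atp6v0a1 was lost without library 21, 22, 23, 17, 14 or 15 (highest 0.032) and that of Atp6ap2 without 21, 22, 23, 19 or 20 (0.024).

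The CD11c+ and CD11c- subsets were compared within neonates and within EAE to ask what marks the CD11c+ cells. In neonates 16 members were called higher in CD11c+ microglia and 1 lower, against 5.44% and 2.31% of all genes, and the members' median log2 fold change was 0.39 against -0.02 over all genes. In EAE 4 were called higher and 0 lower, against 1.66% and 2.71% of all genes, with medians of 0.25 and 0.01. The EAE count moved with single libraries: it was 9 without library 17, 7 without library 1, 2 without library 5, 2 or 3, and 1 without library 6. Of the 45 members, 38 had a positive difference in both, 2 a negative one in both and 5 opposite signs. Over all 13060 genes the difference was positive for 6245 in neonates and for 6627 in EAE. Across the 45 genes, which are not independent, the Pearson correlation of the 2 differences was 0.49, with no libraries shared. The agreement of signs and the correlation were not computed over all genes, so they are not shown to be particular to the members.

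In the neonatal pair, Gla had the largest difference, 1.91 ± 0.30 on the log2 scale (edgeR, adjusted p = 0.00031), and 1.38 without library 16. Among called members Atp6v1a followed at 1.03 ± 0.10 (2.1e-06), Atp6v1f at 0.96 ± 0.21 (0.0042), Galns at 0.89 ± 0.12 (4.7e-05) and Glb1 at 0.86 ± 0.09 (5.5e-06). Atp6v1f was read at 42.0, 36.8, 38.8 and 44.1 CPM in CD11c+ and 11.6, 23.5, 20.9 and 26.9 in CD11c- libraries, library 17 being the lowest, and its call was lost without library 19, 13 or 16 (highest 0.015). Glb1 was at 158.9, 158.6, 159.1 and 135.1 CPM in CD11c+ and 82.9, 75.6, 83.9 and 94.1 in CD11c- libraries, without overlap. Of the 13 V-ATPase genes 6 were called higher in CD11c+ cells, where 5.44% of all genes were. Sgsh, lower than adult in both subsets, was less so in CD11c+ cells (0.67 ± 0.14, 0.0038, lost without library 20, 13 or 14, highest 0.019). Arsb was the 1 member called lower in CD11c+ cells, at -0.72 ± 0.16 (0.0060), and at -0.45 without library 17, still called. That call was lost without library 13, 14, 15 or 16 (highest 0.021). The call of Scarb2 was lost without library 21, 22, 23, 17, 18, 20, 13, 14, 15 or 5 (highest 0.029) and that of Neu1 without 19, 20, 13, 15 or 16 (0.016). The border macrophage sums given above were also higher in neonatal CD11c+ than in CD11c- libraries, and their part here was not tested.

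In the EAE pair the 4 members called higher in CD11c+ microglia were Gm2a and 3 glycosidases. Gm2a was at 606.3, 576.3 and 554.2 CPM in CD11c+ against 393.5, 393.8 and 321.9 in CD11c- libraries, a log2 difference of 0.65 ± 0.12 (edgeR, adjusted p = 0.0021, and 0.020 without library 6). Glb1 was at 194.5, 197.4 and 209.9 against 132.3, 133.8 and 118.2 CPM, a difference of 0.65 ± 0.11 (0.00066). Gaa, the acid α-glucosidase of glycogen, was at 280.3, 313.6 and 313.1 against 218.5, 199.7 and 194 CPM (0.57 ± 0.12, 0.0044), and Fuca1, the α-fucosidase, at 184.7, 197.8 and 197.3 against 148.2, 139.2 and 134.6 CPM (0.46 ± 0.09, 0.0024). No library overlapped between the groups for any of the 4. All CD11c+ libraries lay above all CD11c- libraries for 20 of 45 members and for 11.8% of all genes. The calls of Gaa and Fuca1 were both lost without library 5, 6, 2 or 3, and that of Gaa also without 4 (highest 0.036 and 0.022). Gla differed by 1.29 ± 0.34, with no overlap between groups, and was not called (0.025). The EAE CD11c- libraries also had neutrophil sums of 6617 CPM or more, where CD11c+ libraries had 69.5 or less.

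The subset differences themselves were compared as an interaction. A single member was called: Atp6v1a, whose subset difference was larger in neonates (1.03 ± 0.10) than in EAE (0.22 ± 0.12), by 0.81 ± 0.15 on the log2 scale (edgeR, adjusted p = 0.0055). The share of all genes called was 1.43% with a larger and 0.107% with a smaller difference in neonates, and 0 members were called with a smaller one. Of the 45 members 32 had a positive value, with a median of 0.15 against 0.00 over all genes. The call of Atp6v1a was lost without library 18, 19, 20, 13, 14, 4, 5, 6 or 2 (highest adjusted p = 0.025). Among the other V-ATPase genes Atp6v1b2 was at 0.81 ± 0.24 (0.070) and Atp6v0d1 at 0.53 ± 0.14 (0.038), neither called. For Gla the interaction was 0.61 ± 0.45 (0.48).

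**Figure D4:**
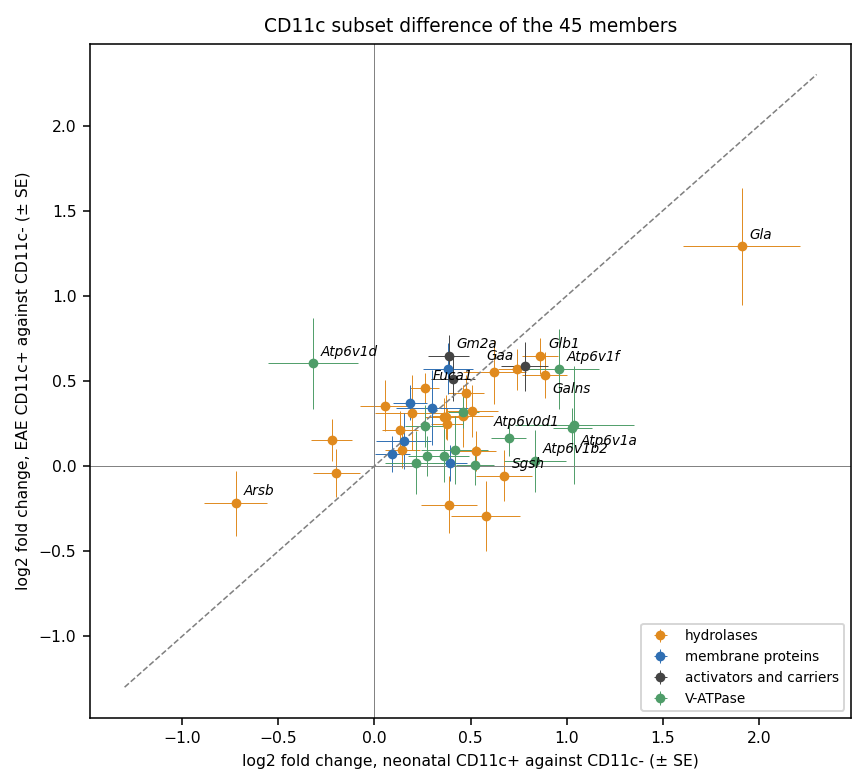
Log2 fold change of CD11c+ against CD11c- microglia in neonates (x axis) and in EAE (y axis) for the 45 members, each with its SE and coloured by class, with a dashed line of equal differences. Most points lie in the upper right, Arsb lies in the lower left, and Atp6v1a lies far below the dashed line at 1.03 in neonates and 0.22 in EAE.

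The mean of the 2 neonatal groups was also set against the mean of the 2 EAE groups. Of the members, 14 were called higher in neonates and 6 lower, against 16.9% and 17.4% of all genes, and the medians were 0.12 and 0.02. With both subsets of a condition pooled, 4 members lay higher and 2 lower in every neonatal than in every EAE library, as did 7.57% and 9.1% of all genes. Arsb had the largest difference, 2.10 ± 0.14 on the log2 scale (edgeR, adjusted p = 4.1e-10). Atp6v0a1 was at 354 to 479.7 CPM in the 8 neonatal and 247.1 to 312.9 in the 6 EAE libraries (0.64 ± 0.08, 2.7e-06). Scarb2 was likewise separated, with 335.4 to 515.5 CPM in neonatal and 285.1 to 333 in EAE libraries (0.43 ± 0.07), as was Npc1, with 359.3 to 451.5 and 281 to 345.1 CPM (0.37 ± 0.07). Among the other 10 called higher, with overlapping libraries, were Tpp1 (1.06 ± 0.15) and Lipa (1.05 ± 0.13). Sgsh was lower in neonates, at -1.01 ± 0.10 (2.6e-07), as was Psap, at -0.76 ± 0.09 (8.2e-07), both without overlap. Gm2a (-0.69 ± 0.08), Glb1 (-0.50 ± 0.07), Atp6v1c1 (-0.45 ± 0.06) and Smpd1 (-0.38 ± 0.11) were also lower. The call of Smpd1 (0.0098) was lost without any 1 of 15 libraries, all but libraries 19 and 1 (highest 0.036). Of the 6 membrane proteins 4 were higher in neonates and 0 lower, while all 3 activator and carrier proteins had values below 0.

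Other genes of the lysosome, from lists that hold no member, were read for comparison. In neonatal CD11c+ microglia 18.0% of all genes were called higher and 15.3% lower, and in EAE CD11c+ microglia 15.1% and 11.1%. Of 17 other lysosomal enzymes 7 were called higher and 1 lower in neonatal CD11c+, and 5 higher and 3 lower in EAE CD11c+ microglia. Scpep1, a serine carboxypeptidase, rose in all 4 groups against adult (1.35 in neonatal CD11c+ and 1.60 in EAE CD11c+ microglia). Dnase2a, the lysosomal DNase, rose by 0.96 in neonatal CD11c+ microglia.

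Of 19 other membrane proteins 7 were called higher and 2 lower in neonatal CD11c+ and 4 higher and 1 lower in EAE CD11c+ microglia, the last counts near the 15.1% and 11.1% of all genes. Mcoln2, a channel related to Mcoln1, was at 0.164 ± 0.085 CPM (n = 3) in adult, below the floor of 3 counts, and at 11.5 ± 1.20 (n = 4) in neonatal CD11c+ and 2.40 ± 0.34 (n = 3) in EAE CD11c+ microglia. The sialic acid exporter Slc17a5 rose by 1.63 in neonatal CD11c+ microglia and was -0.14 in EAE CD11c+ microglia, and its interaction of 0.98 was called (edgeR, adjusted p = 0.0051). Slc11a1, a metal transporter, fell in both neonatal groups (-0.69 in CD11c- and -0.41 in CD11c+) and rose by 0.44 in EAE CD11c+ microglia. Of 7 other V-ATPase subunits that passed the filter, 3 were called higher and 1 lower in neonatal CD11c+ microglia (18.0% and 15.3% of all genes). In EAE CD11c+ microglia 3 were called higher and 0 lower (15.1% and 11.1% of all genes). Atp6v0d2, the alternative d subunit of V0, was at 17.8 ± 3.19 CPM in neonatal CD11c+ microglia and at 0.334 or less in the means of the other groups. Atp6v0a2 fell by 0.79 in neonatal CD11c+ and rose by 0.53 in EAE CD11c+ microglia, while Atp6v1g1 rose by 0.81 and 0.59 in the same groups.

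Of 9 genes for mannose 6-phosphate tagging and sorting, through which hydrolases reach the lysosome, 5 were called higher and 1 lower in neonatal CD11c+ and 4 higher and 2 lower in EAE CD11c+ microglia. Of all genes, 18.0% and 15.3% were called higher and lower in neonatal CD11c+, and 15.1% and 11.1% in EAE CD11c+ microglia. Gnptab, of the enzyme that starts the tag, rose by 1.04 in neonatal CD11c+ and 2.00 in EAE CD11c+ microglia, and Grn, progranulin, by 1.20 and 1.49. Cln8, an ER protein that hands over newly made enzymes, rose by 0.73 and fell by 0.74. Of 9 Ragulator and Rag genes, which link the lysosome to mTORC1, 4 were called higher in neonatal CD11c+ and 1 in EAE CD11c+ microglia, the last near the 15.1% of all genes. Rragc rose by 0.97 and Rragd by 2.28 in neonatal CD11c+ microglia, and Lamtor2 by 1.03 there and 0.77 in EAE CD11c+ microglia. Of 9 HOPS and fusion genes 2 were called in neonatal CD11c+ microglia, among them Vps33a (0.62), and 1, Vamp8 (0.68), in EAE CD11c+ microglia, near the 18.0% and 15.1% of all genes. Stx7 was called in the contrast of neonates with EAE alone (-0.30). Of the 4 MiT/TFE factors, Tfec rose in 3 groups, from 1.56 ± 0.05 CPM in adult (n = 3) to 29.2 ± 4.44 in neonatal CD11c+ (n = 4) and 3.63 ± 0.57 in EAE CD11c+ microglia (n = 3). The third group was neonatal CD11c-, where Tfec rose by 3.71 on the log2 scale, against 4.21 in neonatal CD11c+ microglia. In neonatal CD11c- microglia 2 of the 4 factors were called lower (12.1% of all genes). Mitf rose by 0.91 in neonatal CD11c+ microglia and Tfe3 fell by 0.44 in EAE CD11c+ microglia.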

How the data were processed

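The authors sorted the cells, made TruSeq libraries, sequenced single reads, aligned them with STAR (2.3.11 in the submitters' notes) to GRCm38, and counted reads per Ensembl gene with HTSeq 0.5.4. The deposited files hold these raw counts, 1 file per library. The files give no strand setting, so reads of overlapping genes may be shared. IDs were joined to symbols of GENCODE M21 (40254 of 41388 IDs). Of 197 genes in the lists, 196 were matched. The 13060 genes that reached 1 CPM by library total in 3 or more libraries were kept, and their counts were scaled by TMM. They entered 1 model of the 5 groups (R 4.3.3, limma 3.58.1, edgeR 4.0.16, with DESeq2 1.42.0 as an alternative). The 8 comparisons used quasi-likelihood tests with Benjamini-Hochberg adjustment, a limit of 0.01 on the adjusted p and none on fold. SE is the log2 fold change over the square root of F. The script was tested on simulated data. Log values used 2 as prior count. Depth limits precision: the floor of 3 counts is 0.288 to 0.586 CPM, for counting error only.

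The members and lists were chosen with earlier results of these data known. All members may be named. Per comparison, values are given first for up to 5 members called higher and up to 5 called lower with the largest log2 fold change, those without overlap between groups first. Per-length levels name the 5 highest and 3 lowest. Of each other lysosomal list, up to 3 genes with the smallest adjusted p are named; some genes under this rule are not reported here. Alternatives were other scalings, tools, filters and thresholds, fitting only the groups compared, and leaving out libraries. The study describes the libraries as pools from separate immunisations or sorts, which the labels do not assign to libraries, so p-values measure the spread between pools. Comparisons with adult share 3 libraries, and no block was used. The authors' own tests and modules were not used here.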

Additional observations from a re-analysis of the deposited data

Results flagged for a closer look

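In groups of 4 libraries, a member was marked where the gap between 1 library and the nearest other took a share of the group's range of log2 CPM above Dixon's 95% critical value. Of 90 cases (45 members in 2 neonatal groups), 11 were marked. Chance marks about 1 in 20 groups. Of the 11, 7 were library 17 in neonatal CD11c- microglia, low for Arsa (0.8600), Atp6v0b (0.8385), Atp6v1a (0.9280), Atp6v1b2 (0.8291) and Atp6v1h (0.8545), and high for Lipa (0.8441) and Atp6v0a1 (0.8997). The other 4 were library 16 in neonatal CD11c+ microglia, high for Gla (0.8451) and Atp6v0c (0.9380) and low for Glb1 (0.9801) and Atp6ap1 (0.8603). Library 17 had the highest mitochondrial share of its group and library 16 the highest immediate early sum, and their part was not tested. The subset difference of Atp6v1a was larger in neonates than in EAE by 0.81 on the log2 scale, as the interaction test found.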

How the results depend on the processing

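No called difference of a member reversed under any alternative. Of 124 calls over the 8 comparisons, 124 stayed past the threshold with DESeq2's Wald test, edgeR's likelihood ratio test, limma voom with quality weights, or without libraries 1, 16 and 17 together. Libraries 1, 16 and 17 were those furthest from their groups over these same members. Leaving them out lowers the spread within groups, so that fit is no separate support for the calls. With DESeq2 size factors 123 stayed, with unscaled library totals 114, without a low-count filter 108, and with only the groups compared 103. Leaving out 1 library kept 94 to 121, and 83 stayed in every such fit. Counts that moved by over 1.5 times follow, as higher or lower members. Neonatal CD11c- against adult, 3 lower: 5 with DESeq2, 5 with the likelihood ratio test, 6 with voom, 5 at an adjusted p of 0.05, 6 without the 3 libraries; 14 higher: 9 with only the groups compared. EAE CD11c- against adult, 9 higher: 14 with voom, 15 with only the groups compared and 15 without the 3 libraries; 0 lower: 2 with library totals, 1 without the filter, and 3 with DESeq2, the likelihood ratio test, voom, only the groups compared, a threshold of 0.05 or without the 3 libraries. Neonatal CD11c+ against CD11c-, 16 higher: 30 with voom, 25 at 0.05, 28 without the 3 libraries; 1 lower: 0 with only the groups compared. EAE CD11c+ against CD11c-, 4 higher: 2 with library totals, 12 with DESeq2, 7 with the likelihood ratio test, 15 with voom, 1 with only the groups compared, 12 at 0.05, 15 without the 3 libraries. Interaction, 1 higher: 0 with library totals, 2 with DESeq2, 0 with only the groups compared, 2 at 0.05, 4 without the 3 libraries.

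Leaving out 1 library gave, for neonatal CD11c- against adult, 7 to 16 higher and 2 to 5 lower; for neonatal CD11c+ against adult, 23 to 32 higher and 1 to 3 lower; for EAE CD11c- against adult, 3 to 11 higher and 0 to 2 lower; for EAE CD11c+ against adult, 15 to 25 higher and 0 to 3 lower. It gave 12 to 21 higher and 0 to 1 lower between the neonatal subsets, 1 to 9 higher between the EAE subsets, and 0 to 1 for the interaction. No paired analysis was possible because library numbers are unique across groups. Scaling moved the median of all genes by less than 0.1 on the log2 scale. The depth left no member near the floor. The causes were not tested.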

Other observations

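Library 17 of the neonatal CD11c- group and library 1 of the EAE CD11c+ group, the libraries with the highest mitochondrial shares, departed from the rest of their groups in like directions. Over the 45 members, 15 were above the rest in both, 23 below in both and 7 opposite. The Pearson correlation of the departures was 0.81 over the members and 0.69 over 8832 genes with a mean CPM of at least 10, as a description across genes that are not independent. Atp6v1d was the member furthest above in library 17 (1.16 on the log2 scale) and was also above in library 1 (0.68). Atp6v1f was furthest below in library 17 (-0.99) and below in library 1 (-0.90).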
